A study of Mus musculus with 4 samples.

Results

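Notch signalling passes between touching cells. Ligands of the Jagged (Jag) and Delta-like (Dll) families on one cell bind Notch receptors on its neighbour, proteases release the receptor's intracellular domain, and in the nucleus this domain joins the DNA-binding factor Rbpj and switches on targets, chiefly the Hes and Hey repressors. In mouse limbs the pathway is known for its part in the apical ectodermal ridge and in digit separation, in keeping muscle and cartilage precursors immature, and in blood vessels and their mural cells. The genes described here are 3 receptors (Notch1, Notch2 and Notch3), 3 ligands (Jag1, Jag2 and Dll1) and 4 targets (Hes1, Hey1, Hey2 and Heyl). They were taken from a list of names, and the counts of every tag assigned to their Ensembl genes were summed. All 10 had tags, among 26252 genes and clusters in the table, and all 10 passed the filter on low counts that left 13718 genes for testing.

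The material was hindlimb and forelimb dissected from CD1 mouse embryos, an outbred stock with no introduced allele or treatment, at E14.5, when digits separate and cartilage, muscle and skin differentiate. Each limb type had 2 biological replicates, and the labels do not say how many embryos a replicate held. RNA was measured by DGE-SAGE: NlaIII, an enzyme that recognises CATG, cuts the cDNA, and the 17 bases behind the cut are read and counted as the tag of a transcript. Since each molecule is meant to give a single tag, a gene's count is not divided by its length.

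Library totals were 5325279 and 5015295 tags in hindlimb replicates 1 and 2, against 4695786 and 1829647 in forelimb replicates 1 and 2. Values below are in CPM, counts scaled to a common library size with edgeR's TMM factors. For genes, 1 count was worth 0.224, 0.254, 0.256 and 0.621 CPM in these libraries. Single tags were scaled with the factors of the fit over tags, where 1 count was worth 0.2355, 0.2645, 0.2726 and 0.647 CPM. The CPM of a gene's tags therefore do not sum exactly to the CPM of the gene. The limb markers matched the labels, with Pitx1, a hindlimb selector, at 254 and 305 CPM in hindlimb and 3.33 and 1.24 CPM in forelimb, and Tbx5, required for forelimb formation, at 0.894 and 1.52 CPM in hindlimb and 18.4 and 14.9 CPM in forelimb. The libraries also differed in the base composition of their tags. The mean share of G and C (GC) over annotated counts was 46.3% and 50.4% in hindlimb, and 40.6% and 40.2% in forelimb. For this reason the difference of each of the 10 genes is given a second time with a tag-sequence offset, a correction for base composition and position that was learned in each library only from differences between tags of the same gene.

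The 10 genes were read through 109 different tags, of which 25 had enough counts to be tested singly. The sequences of those on which the results turn are printed here in the order receptors, ligands and targets, each from the base after CATG, with G and C in capitals, because the number of G and C bases separates tags of the same gene in what follows. They were read from the deposited table, and the tag number is its rank by counts within its gene.

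Notch1 tag 1: CaaaaCtGtaGGtaatG
Notch1 tag 4: CCGtCCCaGatCaCCCa
Notch2 tag 1: GCaCCCaGGaCaCaGGa
Notch2 tag 2: tGGtGaCatCatCttaC
Notch3 tag 1: GaGaGGaatatCCtGCa
Jag1 tag 1: GataaaCaCCaGCaGaa
Jag1 tag 2: GGGaGaGtGataCttGa
Jag2 tag 1: GGGCtGGtGGGGaGGaC
Jag2 tag 2: CCttGGCtaGCCCCtCC
Jag2 tag 3: GGaGttCCtGGatGGaa
Jag2 tag 4: GtaCCCatGGCaattGG
Dll1 tag 1: atatCtGtaaaGCttGa
Dll1 tag 2: GaGCCGaGaaGaGCaGC
Hes1 tag 1: CaCtGCatttGtatata
Hes1 tag 2: tGGaGaCCGtGGCGGaa
Heyl tag 1: GtCCCCaGGGCtGttGt
Heyl tag 2: tGaCaatCCCtGGGGaG
Heyl tag 3: tGtataCataCataCaa

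The ligands carried both calls among the 10 genes. Jag2 passed the test as higher in hindlimb and Jag1 as higher in forelimb, while Dll1, the receptors and the 4 targets did not pass at an adjusted p of 0.05. Of all tested genes, 16.7% were called in either direction, 9.58% higher in hindlimb and 7.08% higher in forelimb, so 2 calls among 10 genes are close to the background. The median log2 fold change (hindlimb over forelimb) was -0.237 over the 10 genes and -0.029 over all tested genes. With the tag-sequence offset 0 of the 10 were called by edgeR and 1, Hes1, had an unadjusted p under 0.05, where 0.197% of all tested genes were called, 0.124% higher in hindlimb and 0.0729% higher in forelimb. An unadjusted p under 0.05 was found for 9.62% of all tested genes with this offset, so 1 of 10 is near the background. The offset also moved the median of all tested genes to 0.072, and it narrowed the spread of log2 fold changes, from an SD of 0.898 to 0.337 over the 10 genes and from 1.158 to 0.704 over all of them.

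**Figure D1:**
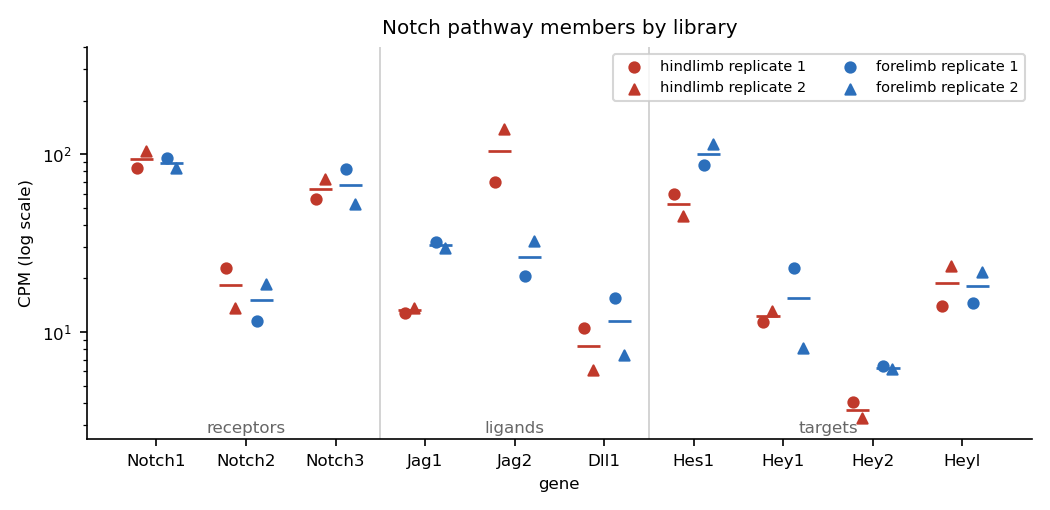
CPM (log axis) of the 10 genes in each library, with hindlimb in red to the left and forelimb in blue to the right; circles are replicate 1, triangles replicate 2, and short lines the mean of 2 libraries. The limb types are apart for Jag1, Jag2, Hes1 and Hey2 and overlap for the other 6 genes.

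The plot of CPM by library shows the ranges of the limb types apart for 4 of the 10 genes, Jag1, Jag2, Hes1 and Hey2. That held for 62.8% of all tested genes. The same share was not taken over single tags, so tags described below as apart between limb types have no such background.

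Among the receptors, Notch1, the receptor of the ridge and of many precursor cells, had 83.6 and 104 CPM in hindlimb and 94.8 and 83.3 CPM in forelimb. The limb types overlapped, with a log2 fold change of 0.07 ± 0.32 (n = 2 each, SE; edgeR adjusted p = 0.900), or 0.05 ± 0.24 with the offset. Notch2, a receptor found in many tissues, had 23.0 and 13.7 CPM in hindlimb and 11.5 and 18.6 CPM in forelimb, from 30 to 103 counts a library. Its replicates differed as much as the limb types, at 0.32 ± 0.48 without the offset (edgeR adjusted p = 0.687) and 0.08 ± 0.44 with it. Notch3, the receptor of mural cells around vessels, had 55.7 and 72.3 CPM in hindlimb and 82.5 and 52.2 CPM in forelimb. Forelimb replicates 1 and 2 lay above and below both hindlimb libraries, and the log2 fold change was -0.09 ± 0.35 (edgeR adjusted p = 0.891), or -0.47 ± 0.28 with the offset. None of the receptors was called under any of the alternatives run.

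The vessel markers are given beside these values, since fewer cells of a type and less RNA per cell cannot be told apart in whole limbs. The 10 endothelial markers summed to 278 and 330 CPM in hindlimb and 283 and 232 CPM in forelimb, with Pecam1 and Cldn5 called higher in hindlimb and Cdh5 called higher in forelimb. With the offset none of the 3 was called, at 0.19 for Pecam1, -0.04 for Cldn5 and -0.43 for Cdh5. The 8 mural and smooth muscle markers summed to 316 and 386 CPM in hindlimb and 248 and 334 CPM in forelimb, with Cspg4 called higher in hindlimb (118 and 183 CPM, against 45.3 and 40.4 CPM in forelimb) and Acta2 called higher in forelimb (36.7 and 29.7 CPM in hindlimb, against 75.8 and 102 CPM in forelimb). Neither was called with the offset, at 0.24 and 0.17. No marker of these lists was at 0 in all libraries, and their part in the receptor levels was not tested.

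Jag2, a ligand made in the apical ectodermal ridge and the overlying skin, whose loss in mice leaves digits fused, was higher in hindlimb. It had 69.3 and 138 CPM in hindlimb (310 and 543 counts) and 20.7 and 32.3 CPM in forelimb (81 and 52 counts), so that the lower hindlimb library lay above the higher forelimb library, while the hindlimb replicates themselves were well apart. The means were 104 ± 48.3 CPM in hindlimb and 26.5 ± 8.18 CPM in forelimb (SD, n = 2 each), a log2 fold change of 1.99 ± 0.40 (SE, edgeR adjusted p = 0.00389). That difference was -0.10 ± 0.29 once the tag-sequence offset was applied (edgeR adjusted p = 0.953), and 0.30 with an offset for GC alone (edgeR adjusted p = 0.651). The call was also lost without forelimb replicate 1, at 1.68. It was lost as well with tags at the last NlaIII site alone, at 1.43 (edgeR adjusted p = 0.0553). That setting sums the tags after the last CATG of any annotated transcript of a gene. For Jag2 these were tags 2, 3, 7 and 8. Jag2 (ENSMUSG00000002799) lies on the minus strand of chromosome 12, from 112907819 to 112929776 in GRCm38, and GC made up 69.6% of the bases in its counted tags, the highest of the 10 genes.

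The tags of Jag2 did not move together. Tag 1, with 76.5% GC, lies in a coding exon at chr12:112909075-112909091 and held 52.4% of the gene's counts. It had 33.9 and 84.1 CPM in hindlimb and 10.9 and 9.71 CPM in forelimb, and its log2 fold change of 2.5 ± 0.57 was called (edgeR adjusted p over all tested tags = 0.0382). Tag 2, with 70.6% GC, follows the last CATG of the transcript, at chr12:112908104-112908120 in the 3' UTR. It had 23.3 and 31.5 CPM in hindlimb and 1.91 and 2.59 CPM in forelimb (7 and 4 counts), and was also called, at 3.64 ± 0.62 (edgeR adjusted p = 0.0213). Without the offset tag 2 kept its call under every alternative run, while tag 1 lost its call with the replicate block (edgeR adjusted p = 0.0840), with library totals alone (0.0570), for tags with a total of at least 10 counts (0.0660), without forelimb replicate 1 (0.0582) and without hindlimb replicate 2 (0.0731). Both tags were higher in each hindlimb library than in either forelimb library, and the forelimb value of tag 2 rests on few counts.

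The other 2 Jag2 tags that could be tested had fewer G and C bases. Tag 3, with 52.9% GC, lies in a coding exon at chr12:112911751-112911767 and had 8.48 and 10.6 CPM in hindlimb and 6.81 and 14.2 CPM in forelimb. The forelimb values of tag 3 lay on both sides of the hindlimb ones, with a log2 fold change of -0.11 ± 0.62 (edgeR adjusted p = 0.936). Tag 4, with 52.9% GC, lies in the 3' UTR at chr12:112908309-112908325 and had 4.48 and 12.4 CPM in hindlimb and 1.91 and 5.18 CPM in forelimb, at 1.34 ± 0.85 (edgeR adjusted p = 0.325). With the offset tags 1 to 4 had log2 fold changes of 0.06, 0.18, 0.01 and 0.57. A direct test of unequal tag usage within Jag2, edgeR's diffSpliceDGE, gave an unadjusted p of 0.0316 and an adjusted p of 0.134, which did not pass, where 10.4% of the genes with 2 or more tested tags did. Over all tested tags 6.22% were called without the offset (hindlimb higher for 4.58%, forelimb higher for 1.64%) and 0.0317% with it.

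**Figure D2:**
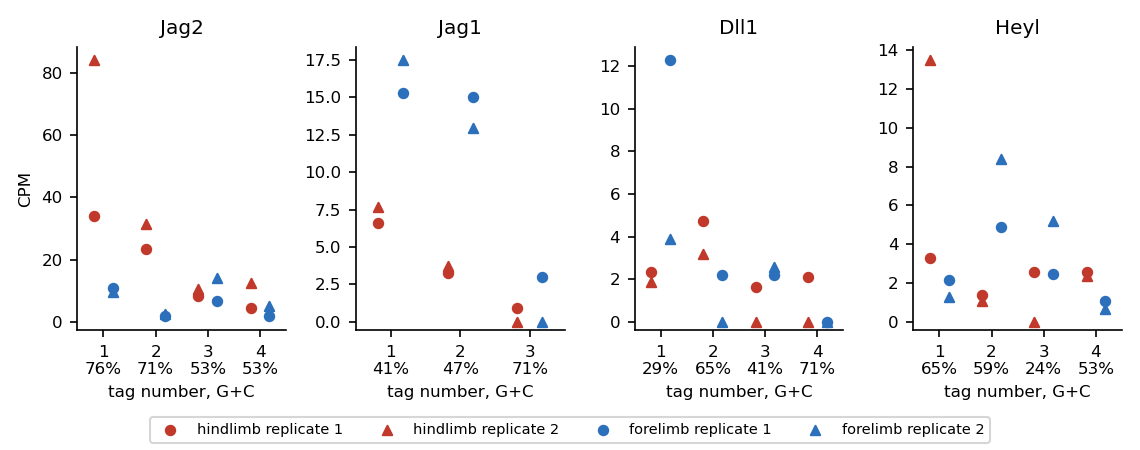
CPM of single tags of Jag2, Jag1, Dll1 and Heyl in each library, for up to 4 tags with at least 5% of the gene's counts, with the tag's number and its share of G and C under the axis; hindlimb is red and left, forelimb blue and right, and each panel has its own scale. Jag2 tags 1 and 2 are higher in hindlimb while tag 3 overlaps, and tags 1 and 2 of Dll1 and of Heyl lie in opposite order.

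Epidermal markers are set beside Jag2. The 7 epidermal markers summed to 1480 and 1880 CPM in hindlimb and 1120 and 1190 CPM in forelimb. The keratins Krt14 and Krt1 were called higher in hindlimb, and Krt10 and the epidermal regulator Trp63 higher in forelimb, so the list had 2 called members in each direction. With the tag-sequence offset none of the 4 was called, and Krt14, Krt1 and Krt10 changed sign, at -0.32, -0.37 and 0.16, while Trp63 was at -0.45. Its part in the Jag2 difference was not tested.

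Jag1, a ligand expressed in limb mesenchyme, vessels and developing cartilage, was higher in forelimb. It had 12.7 and 13.7 CPM in hindlimb (57 and 54 counts) and 32.0 and 29.8 CPM in forelimb (125 and 48 counts). Replicates were close to each other in both limb types, with means of 13.2 ± 0.670 CPM in hindlimb and 30.9 ± 1.55 CPM in forelimb (SD, n = 2 each), a difference of -1.23 ± 0.41 on the log2 scale (SE, edgeR adjusted p = 0.0468). The value stayed below 0 in all 17 alternatives, from -1.43 to -0.72. The call, however, lay at the threshold and passed in 4 of them, including a crossed replicate block that was chosen after seeing the data. It was lost when any single library was left out, with edgeR adjusted p of 0.182 and 0.118 without forelimb replicates 1 and 2 and 0.0730 and 0.121 without hindlimb replicates 1 and 2, and with DESeq2 (adjusted p = 0.0649). The offset for tag sequence left it at -0.73 ± 0.35 (edgeR adjusted p = 0.530).

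Both leading tags of Jag1 were lower in hindlimb by value. Tag 1, with 41.2% GC, lies in a coding exon on the minus strand at chr2:137083181-137083197 and had 6.60 and 7.67 CPM in hindlimb and 15.3 and 17.5 CPM in forelimb. Tag 2, with 47.1% GC, lies in a coding exon at chr2:137085313-137085329 and had 3.30 and 3.70 CPM in hindlimb and 15 and 12.9 CPM in forelimb. Neither overlapped between limb types, and neither was called on its own, with log2 fold changes of -1.19 ± 0.55 (edgeR adjusted p = 0.189) and -1.99 ± 0.62 (edgeR adjusted p = 0.0773). With the offset these tags were at -0.41 and -1.5, both still below 0.

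Dll1, the ligand that in mouse limb muscle holds myogenic precursors back from differentiation, was the lowest of the ligands in counts. It had 10.5 and 6.09 CPM in hindlimb and 15.6 and 7.46 CPM in forelimb, from 12 to 61 counts a library, with overlap between limb types and a log2 fold change of -0.52 ± 0.57 (SE, edgeR adjusted p = 0.574), or -0.05 with the offset. Its main tags went opposite ways by value. Tag 1, with 29.4% GC, in the 3' UTR at chr17:15367556-15367572 on the minus strand, had 2.36 and 1.85 CPM in hindlimb and 12.3 and 3.88 CPM in forelimb, at -1.97 ± 0.84 (edgeR adjusted p = 0.157). Tag 2, with 64.7% GC, in a coding exon at chr17:15368519-15368535, had 4.71 and 3.17 CPM in hindlimb and 2.18 and 0 CPM in forelimb, at 1.59 ± 1.23 (edgeR adjusted p = 0.415). With the offset the tags were at -0.28 and 0.01. Unequal tag usage within Dll1 was not called (diffSpliceDGE adjusted p = 0.305). Skeletal muscle markers, 8 in all, summed to 925 and 1090 CPM in hindlimb and 2750 and 2220 CPM in forelimb, with 4 of 7 tested called higher in forelimb, among them Myf5 of early myoblasts and Acta1 of the contractile apparatus. With the offset none of the 4 was called, and Myf5 was at -0.44 and Acta1 at -0.98. The largest part of each sum was Acta1 (522.5 and 548 CPM in hindlimb, 1980 and 1362 CPM in forelimb). Myod1 and Pax7 went the other way by value. Myod1 had 25.9 and 44.1 CPM in hindlimb and 19.7 and 20.5 CPM in forelimb and was not called. Pax7 had 2.24 and 1.52 CPM in hindlimb and 1.02 and 0.621 CPM in forelimb and was not tested. The part of these markers in the Dll1 and Jag1 values was not tested.

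**Figure D3:**
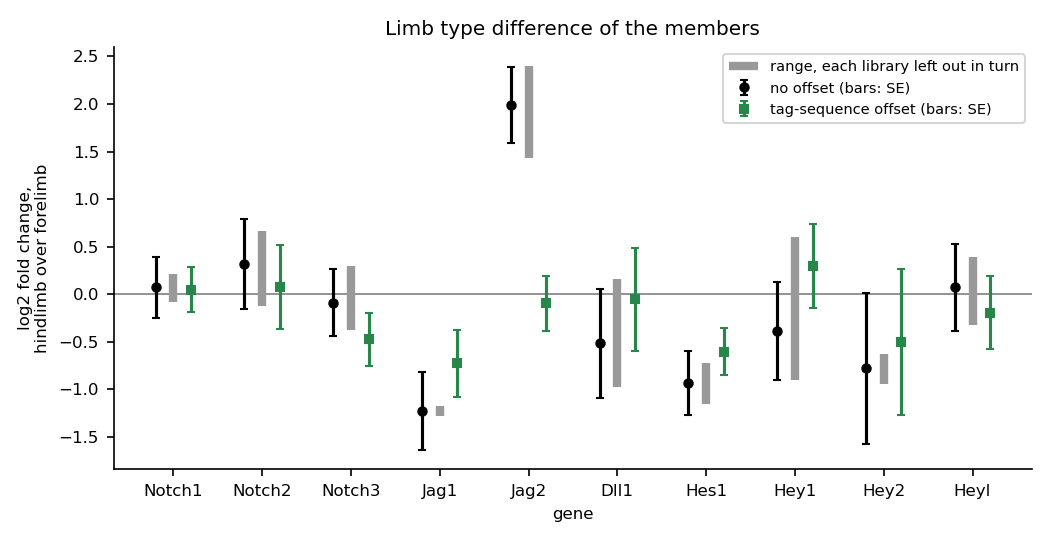
Log2 fold change, hindlimb over forelimb, of the 10 genes without an offset (black, SE), its range when each library is left out in turn (grey) and with the tag-sequence offset (green squares, SE). Jag2 is at 1.99 without and -0.10 with the offset, while Jag1 and Hes1 are below 0 in both.

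None of the 4 targets passed the test. Hes1, a repressor directly switched on by Notch that keeps precursors undifferentiated, came nearest. It had 59.7 and 45.1 CPM in hindlimb (267 and 178 counts) and 86.6 and 114 CPM in forelimb (338 and 184 counts), with both hindlimb libraries under both forelimb libraries. The means were 52.4 ± 10.3 CPM in hindlimb and 100.4 ± 19.6 CPM in forelimb (SD, n = 2 each), a log2 fold change of -0.93 ± 0.34 (SE, edgeR adjusted p = 0.0636), which was -0.61 ± 0.25 under the tag-sequence offset (edgeR adjusted p = 0.429). Its value was below 0 in all 17 alternatives and passed in 4 of them. These included DESeq2 (adjusted p = 0.0483) and a crossed replicate block (edgeR adjusted p = 0.0277). The crossed block was chosen after seeing the data and called 3170 genes in all, against 2285 as reported. Another was the fit without hindlimb replicate 1 (-1.16), which left a single hindlimb library. The remaining pass, just inside the threshold, was with tags at the last NlaIII site, here tags 1 and 3 (edgeR adjusted p = 0.05).

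Hes1 was read almost wholly through a single tag. Tag 1, with 29.4% GC, follows the last CATG in the 3' UTR at chr16:30067604-30067620 on the plus strand and held 85.9% of the counts. It had 51.1 and 36.8 CPM in hindlimb and 83.4 and 109 CPM in forelimb, a log2 fold change of -1.13 ± 0.43 (edgeR adjusted p = 0.123). Tag 2, with 64.7% GC, in the coding exon at chr16:30067408-30067424, had 7.07 and 6.61 CPM in hindlimb and 4.63 and 7.12 CPM in forelimb, at 0.25 ± 0.68 (edgeR adjusted p = 0.849). The limb types were thus apart for tag 1 and overlapped for tag 2, and with the offset these tags were at -0.72 and 0.38.

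Hey1, a repressor of the same basic helix-loop-helix class that acts in vessels and bone-forming cells, had 11.4 and 13.2 CPM in hindlimb and 22.8 and 8.08 CPM in forelimb. The forelimb replicates lay on both sides of the hindlimb ones, at -0.39 ± 0.52 (SE, edgeR adjusted p = 0.652) and 0.30 with the offset, a change of sign. Hey2, its close relative in heart and arteries, was the lowest of the 10 genes, with 4.02 and 3.30 CPM in hindlimb (18 and 13 counts) and 6.40 and 6.21 CPM in forelimb (25 and 10 counts). Its limb types did not overlap, but at these counts the log2 fold change of -0.78 ± 0.80 (edgeR adjusted p = 0.533) was smaller than its error, as was the -0.50 ± 0.77 with the offset.

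Heyl, the third Hey gene, known from vascular smooth muscle and muscle precursors, had 14.1 and 23.6 CPM in hindlimb and 14.6 and 21.8 CPM in forelimb, a log2 fold change of 0.07 ± 0.46 (SE, edgeR adjusted p = 0.934). This even level was a sum over tags with unlike values. Tag 1, with 64.7% GC, in the 3' UTR at chr4:123247809-123247825 on the plus strand, had 3.30 and 13.5 CPM in hindlimb and 2.18 and 1.29 CPM in forelimb, at 2.18 ± 0.94 (edgeR adjusted p = 0.159). Tag 2, with 58.8% GC, at chr4:123249503-123249519, had 1.41 and 1.06 CPM in hindlimb and 4.91 and 8.41 CPM in forelimb, at -2.37 ± 0.92 (edgeR adjusted p = 0.124). Neither tag overlapped between the limb types, neither was called, and with the offset they were at -0.12 and -1.45. Tag 3, with 23.5% GC, at chr4:123249826-123249842, had 2.59 and 0 CPM in hindlimb and 2.45 and 5.18 CPM in forelimb. The level read for Heyl therefore changed sign with the tag used, at 2.11 for its most abundant tag alone and -1.57 for the tag after the last CATG.

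Tags of the receptors are given in the same way. Notch1 tag 1, with 35.3% GC, in the 3' UTR at chr2:26457985-26458001 on the minus strand, held 55.6% of the gene's counts and had 47.8 and 68.2 CPM in hindlimb and 48.3 and 51.1 CPM in forelimb. Notch1 tag 4, with 64.7% GC, in a coding exon at chr2:26459553-26459569, had 6.60 and 10.3 CPM in hindlimb and 3.0 and 0.647 CPM in forelimb, at 2.03 ± 0.86 (edgeR adjusted p = 0.153). The limb types overlapped for tag 1 and were apart for tag 4, and with the offset these were at 0.52 and -0.96. Notch2 tag 1, with 64.7% GC, at chr3:98149015-98149031 on the plus strand, had 53 and 9 counts in hindlimb and 3 and 0 in forelimb and did not pass the filter for testing. Notch2 tag 2, with 41.2% GC, at chr3:98149330-98149346, had 7 and 6 counts in hindlimb and 19 and 20 in forelimb, a log2 fold change of -2.42 ± 0.86 (edgeR adjusted p = 0.102). These neighbouring tags of the Notch2 3' UTR were in opposite order, and tag 2 was at -0.74 with the offset. Notch3 tag 1, with 47.1% GC and 65.3% of the counts, at chr17:32122108-32122124 on the minus strand, had 34.4 and 48.7 CPM in hindlimb and 62.2 and 36.2 CPM in forelimb, and its limb types overlapped, at -0.26 without the offset and -0.25 with it. The other tested tags of Notch3 were at 0.00, 1.25 and 0.19 for tags 2, 3 and 4, and none was called.

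The other tags with at least 5% of a gene's counts were read as follows. Notch1 tags 2 and 3 had 55 and 32, and 26 and 10 counts in hindlimb, against 49 and 16, and 45 and 17 in forelimb. Notch2 tags 3, 4 and 5 had 8 and 16, 7 and 5, and 16 and 1 counts in hindlimb, against 9 and 1, 6 and 2, and 1 and 0 in forelimb. Jag1 tag 3 had 4 and 0 counts in hindlimb and 11 and 0 in forelimb. In CPM these minor tags overlapped between limb types, apart from Notch1 tag 3, which was lower in both hindlimb libraries and was not called. Dll1 tags 3, 4 and 5 had 7 and 0, 9 and 0, and 1 and 5 counts in hindlimb, against 8 and 4, 0 and 0, and 0 and 2 in forelimb. Heyl tags 4, 5 and 6 had 11 and 9, 2 and 9, and 0 and 7 counts in hindlimb, against 4 and 1, 3 and 6, and 3 and 3 in forelimb. Hey1 and Hey2 were each read mainly through tag 1 in the 3' UTR, with 35.3% GC in both genes. Hey1 tag 1, with 78% of the counts, had 29 and 38 counts in hindlimb and 84 and 9 in forelimb, while its tags 2 and 3 had 11 and 8, and 6 and 6 in hindlimb, against 2 and 3, and 3 and 0 in forelimb. Hey2 tag 1, with 87.9% of the counts, had 15 and 9 counts in hindlimb and 25 and 9 in forelimb, and tag 2 had 0 and 4 in hindlimb and 0 and 0 in forelimb.

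Across the 25 tested tags of the 10 genes, 10 of the 13 with 9 or more G and C bases had log2 fold changes above 0, and 11 of the 12 others had values below 0. Pearson's r between GC share and log2 fold change was 0.69 over these 25 tags and -0.01 with the offset. This is a description across tags that share genes and libraries. The same slope ran through all 37805 tested tags, whose median log2 fold change was -1.13 for tags with 0 to 4 G and C bases, -0.82 for 5 to 6, -0.28 for 7 to 8, 0.58 for 9 to 10, 1.73 for 11 to 12 and 2.93 for 13 to 17. Jag2 tags 1 and 2, with 13 and 12 such bases, are in the top classes, where 37.7% and 18.8% of tags were called.

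**Figure D4:**
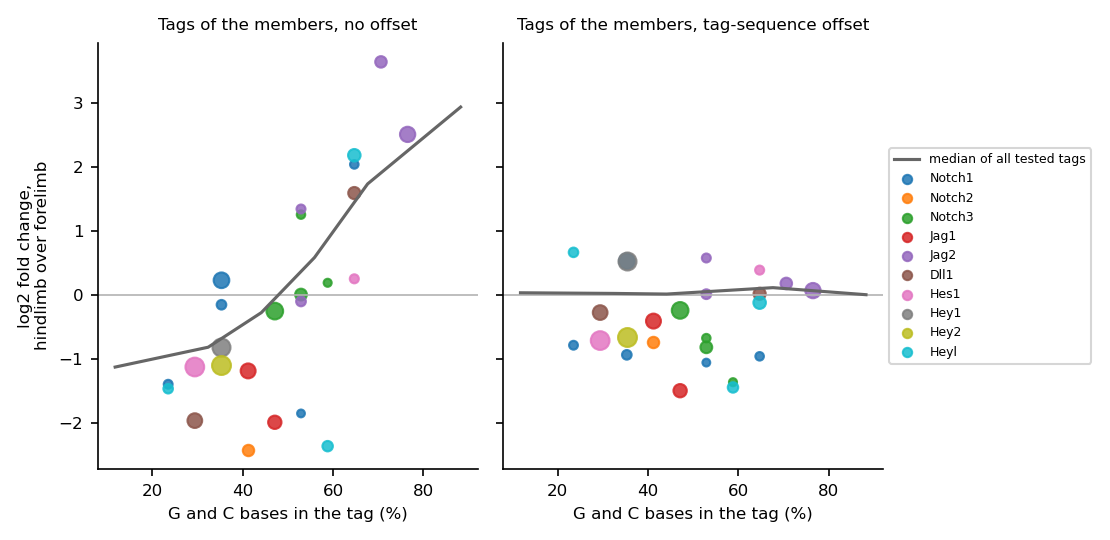
Log2 fold change, hindlimb over forelimb, of the 25 tested tags against their share of G and C, without (left) and with (right) the tag-sequence offset; colours are genes, point size grows with the tag's share of its gene's counts, and the grey line joins the median of all tested tags per class. Values rise with G and C on the left, with r of 0.69, and not on the right, with r of -0.01. The offset was fitted to take out such differences.

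The share of a gene's counts that fell in tags with 9 or more G and C bases gives this within each library. For Dll1 it was 63.8% (95% Wilson interval 49.5 to 76.0) and 70.8% (50.8 to 85.1) in hindlimb, and 13.1% (6.80 to 23.8) and 16.7% (4.70 to 44.8) in forelimb. For Notch1 it was 21.7% (17.8 to 26.1) and 20.9% (17.3 to 25.1) in hindlimb, and 12.2% (9.22 to 15.9) and 8.21% (4.65 to 14.1) in forelimb. For Notch2 it was 77.7% (68.7 to 84.6) and 50% (37.1 to 62.9) in hindlimb, and 24.4% (14.2 to 38.7) and 23.3% (11.8 to 40.9) in forelimb. The share was higher in both hindlimb libraries than in both forelimb libraries for these genes and for 7 of the 10 in all, against 50.4% of the genes that had both kinds of tags. Jag2, whose counts lay almost wholly in such tags, had 98.4% (96.3 to 99.3) and 98.3% (96.9 to 99.1) in hindlimb and 100% in both forelimb libraries (95.5 to 100 and 93.1 to 100). The intervals cover counting error only, since tags are PCR products without molecular identifiers.

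Of the other genes of the pathway, a list of 56 grouped by role, 51 were in the table and 47 were tested; 5 were not analysed here. Of these, 3 were called higher in hindlimb, 2 higher in forelimb and 42 were not called. That is 5 of 47 against a background of 16.7%, and with the tag-sequence offset edgeR called 0, with 5 of 47 at an unadjusted p under 0.05, near the 9.62% over all tested genes. The list's median log2 fold change was 0.087, beside -0.029 over all tested genes.

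Hes6, a Hes relative that in mouse promotes differentiation and opposes Hes1, was higher in hindlimb, with 61.9 and 148 CPM in hindlimb and 28.9 and 20.5 CPM in forelimb. It differed by 2.06 ± 0.42 on the log2 scale (SE, n = 2 each, edgeR adjusted p = 0.00395) and stayed called with each library left out in turn, but it was -0.54 with the offset (edgeR adjusted p = 0.550). Dtx3 and Dtx2, Deltex proteins that act in receptor trafficking and turnover, were higher in hindlimb. Dtx3 had 28.6 and 41.3 CPM in hindlimb and 11.5 and 11.2 CPM in forelimb, at 1.62 ± 0.42 (edgeR adjusted p = 0.0158). Dtx2 had 34.4 and 73.8 CPM in hindlimb and 21.3 and 16.8 CPM in forelimb, at 1.49 ± 0.42 (edgeR adjusted p = 0.0233). With the offset these were at 0.31 and 0.00.

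On the forelimb side, Adam17, a protease that can cut Notch receptors at the cell surface, had 25.9 and 7.86 CPM in hindlimb and 41.2 and 56.5 CPM in forelimb, at -1.51 ± 0.47 (edgeR adjusted p = 0.0360). Nrarp, a target that feeds back to limit Notch signalling, had 55.9 and 54.5 CPM in hindlimb and 134 and 88.9 CPM in forelimb, at -1.02 ± 0.33 (edgeR adjusted p = 0.0437). With the offset Adam17 was at -0.34 and Nrarp at -0.31. The limb types were apart for both, and each of Dtx3, Dtx2, Adam17 and Nrarp lost its call when either forelimb library or hindlimb replicate 2 was left out. Without forelimb replicate 1, forelimb replicate 2 and hindlimb replicate 2 the edgeR adjusted p were 0.0922, 0.0800 and 0.104 for Dtx3, 0.0873, 0.146 and 0.303 for Dtx2, 0.0510, 0.141 and 0.239 for Adam17, and 0.423, 0.0856 and 0.0970 for Nrarp. Nrarp also lost its call with the replicate block (0.0703), its most abundant tag (0.103), tags that match 1 gene (0.0510), the tag at the last NlaIII site (0.0747) and thinned counts (0.0599), and Adam17 with tags that match 1 gene (0.0531) and thinned counts (0.0518).

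The most abundant genes of the list by tag count were Dlk1, Snw1 and Aes. Dlk1, an imprinted Delta-like protein without the receptor-binding domain of the classical ligands, had 2790 and 1997 CPM in hindlimb and 4646 and 4180 CPM in forelimb, at -0.88 ± 0.32 (SE, edgeR adjusted p = 0.0659), or -0.19 with the offset. Its limb types were apart, and it passed in 5 alternatives. These included DESeq2 (adjusted p = 0.0103) and the fit without hindlimb replicate 1, which left a single hindlimb library. It also passed with the crossed replicate block chosen after seeing the data (edgeR adjusted p = 0.0144). The other passes had larger log2 fold changes. They were with its most abundant tag alone (-2.19, edgeR adjusted p = 0.00434) and with the tag at the last NlaIII site (-2.22, edgeR adjusted p = 0.00278). Snw1, a cofactor of the nuclear complex, had 224 and 216 CPM in hindlimb and 177 and 206 CPM in forelimb, and Aes, a Groucho-family co-repressor, had 192 and 173 CPM in hindlimb and 219 and 235 CPM in forelimb. Neither was called.

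**Figure D5:**
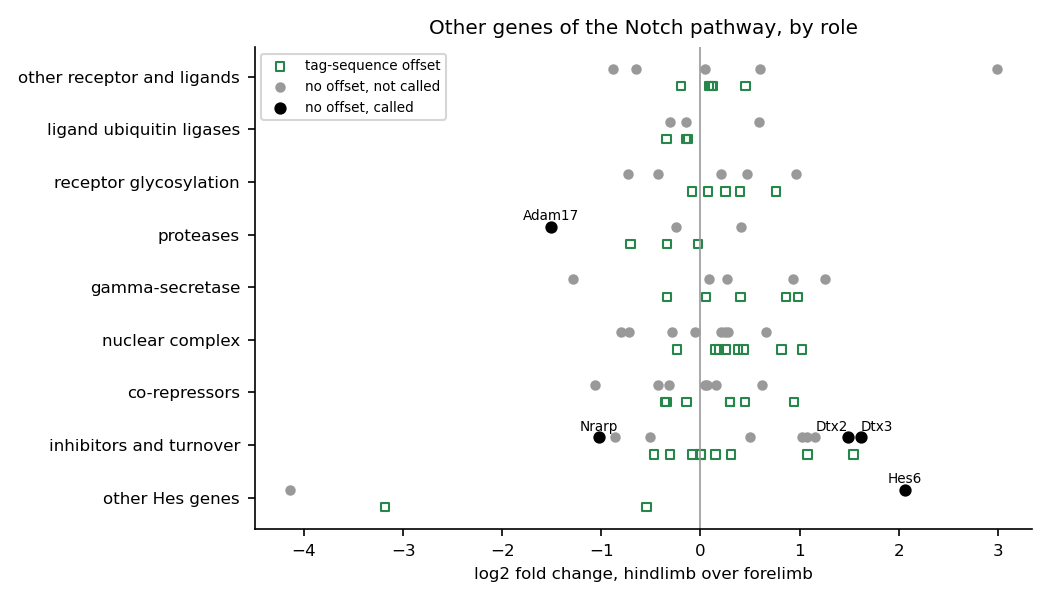
Log2 fold change, hindlimb over forelimb, of the 47 tested genes of the pathway list by role; black points were called without an offset, grey points were not, and green squares give each gene with the tag-sequence offset. The 5 called genes are Hes6, Dtx3 and Dtx2 at 1.49 to 2.06 and Adam17 and Nrarp at -1.51 and -1.02.

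By role, the called genes were 3 of the 9 inhibitors and turnover factors (Dtx3, Dtx2 and Nrarp), 1 of 3 proteases and 1 of 2 tested other Hes genes. None of the 5 other receptors and ligands, 3 ligand ubiquitin ligases, 5 receptor glycosylation enzymes, 5 gamma-secretase genes, 8 nuclear complex genes or 7 co-repressors was called by edgeR in the fit as reported. Dlk1, of the other receptors and ligands, passed only in the alternatives given above. Rbpj, the factor through which the receptors act on DNA, had 93.2 and 73.8 CPM in hindlimb and 150 and 124 CPM in forelimb, at -0.72 (edgeR adjusted p = 0.129) and 0.18 with the offset; it was named after its values were seen.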

How the data were processed

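The authors deposited 1 table of raw, whole-number tag counts for 4 libraries; the submitters' processing notes name Bowtie and mm9, with version and settings not given in the sources used here. Tags without a gene or cluster, 14.8% to 18.7% of a library's counts, stayed out of library sizes and tests. Counts were summed per Ensembl gene and tested, hindlimb over forelimb, with edgeR 4.0.16 under R 4.3.3 (quasi-likelihood test, TMM, filterByExpr, Benjamini-Hochberg over all tested genes at 0.05, no replicate block); tags were tested likewise, and tag usage by diffSpliceDGE with Simes' method. The tag-sequence offset has terms for each base at each of 17 positions, for the opening dinucleotide, and for GC and purine numbers with their squares, fitted to tags with at least 20 counts. The gene fit and the tag-sequence offset were tested on simulated counts, and the other steps were not. Tag positions are matches to GENCODE M21 on GRCm38, not mm9. Precision is set by counting error and the spread between replicates, with 2 residual degrees of freedom. edgeR draws the spread of each gene or tag toward that of all tested ones. The SE of a log2 fold change was worked back from edgeR's F statistic. It therefore rests partly on other genes or tags and does not measure the spread of the gene's own replicates alone. The replicates are biological per the labels. Chi-square per degree of freedom between them was 20.0 in hindlimb and 8.73 in forelimb, above counting error alone. Alternatives were DESeq2 1.42.0, other size factors, filters, tag choices, offsets, blocks, thinning and leaving out each library. The choice of the tag at the last NlaIII site sums every tag after the last CATG of any annotated transcript of a gene. Named were all 10 genes, tags with at least 5% of a gene's counts, called tags, called genes of the pathway list and its 3 most abundant. The genes and lists were chosen with earlier results of these data known.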

Additional observations from a re-analysis of the deposited data

How the results depend on the processing

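The counts of calls, over all genes, the 10 genes and the pathway list, were 841, 0 and 2 with the GC offset, 27, 0 and 0 with the tag-sequence offset, and 20, 0 and 0 with that offset and the replicate block, against 2285, 2 and 5 as reported. Leaving out each library in turn they ran from 950 to 3900, 0 to 2 and 1 to 9. The 10 genes had 1 call without the low-count filter, with the replicate block, with the most abundant tag alone, with the tag at the last NlaIII site and with thinned counts; the pathway list had 9 with the most abundant tag, 3 with thinned counts and 8 with the crossed block. Calls of tags, over all tags and those of the 10 genes, were 2350 and 2 as reported, 729 and 1 for totals of at least 10 counts, 927 and 1 with library totals alone, 435 and 1 with the replicate block, 12 and 0 with the tag-sequence offset, and from 2117 to 10287 and from 1 to 4 with a library left out. Unequal tag usage was called for none of the 10 genes under any alternative run. As reported, 7 of the 10 could be tested for it, since Notch2, Hey1 and Hey2 lacked 2 tested tags. Tag usage was not run with the tag-sequence offset, because diffSpliceDGE takes no offset per tag.

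Directions changed as follows, in log2 fold change; the cause was not tested. With the tag-sequence offset they were -0.095 for Jag2, 0.30 for Hey1, -0.192 for Heyl, -0.543 for Hes6 and 0.296 for Aes, and with the replicate block added -0.0949, 0.372, -0.209, -0.534 and 0.289, and -0.000189 for Dtx2. With the GC offset they were 0.132 for Hey1, -0.519 for Heyl, -0.154 for Snw1 and 0.237 for Aes. Snw1 was -0.0336 with tags that match 1 gene, Heyl -1.57 with the tag at the last NlaIII site, and Notch3 0.00456 with thinned counts. Single tags with the tag-sequence offset were -0.962 for Notch1 tag 4, -0.821 and -0.678 for Notch3 tags 2 and 3, 0.00757 for Jag2 tag 3, 0.523 for Hey1 tag 1, and -0.124 and 0.661 for Heyl tags 1 and 3. Notch3 tag 2 was -0.0707 for totals of at least 10 counts, -0.0407 with library totals alone and -0.0364 with the replicate block. With a library left out the ranges crossed 0 for Notch1 (-0.0802 to 0.211), Notch2 (-0.118 to 0.668), Notch3 (-0.376 to 0.293), Dll1 (-0.976 to 0.163), Hey1 (-0.899 to 0.604), Heyl (-0.326 to 0.391), Notch1 tag 2 (-0.550 to 0.206), Notch3 tag 1 (-0.637 to 0.194), Notch3 tag 2 (-0.345 to 0.286), Jag2 tag 3 (-0.579 to 0.428), Hes1 tag 2 (-0.0558 to 0.511) and Hey1 tag 1 (-1.49 to 0.529).

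The labels do not say that equal replicate numbers share animals, and the replicate differences of the limb types correlated at -0.118 over 13718 genes. The replicate block called 2151 genes, and the crossed pairing, chosen after seeing the data, called 3170 genes and 3 of the 10. Hey2 rests on 10 to 25 counts a library.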

Other observations

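Not every tag assigned to the 10 genes lay on the gene's own transcript. Of the 109 tags, 92 matched the sense strand of their gene and held 97.9% of the counts, 10 matched the opposite strand, 3 matched no transcript, and 4 Notch1 tags (7, 11, 12 and 17) matched the sense strand of another gene. These 4 lie in exons of 0610009E02Rik, a processed transcript on the plus strand of chromosome 2 (26445696 to 26459390, GRCm38) that overlaps the end of Notch1 on the minus strand, and had 17 and 16 counts in hindlimb and 22 and 6 in forelimb. The first of them is printed with G and C in capitals.

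Notch1 tag 7: aatCCttGttCatattt

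Antisense tags of Jag1 had 8 and 10 counts in hindlimb and 3 and 1 in forelimb, while its sense tags had 49 and 44 counts in hindlimb and 122 and 47 in forelimb, so the antisense counts ran opposite to the sense counts. With tags that match 1 gene alone, the log2 fold change of Jag1 was -1.43 (edgeR adjusted p = 0.0270). The 4 antisense Jag1 tags are few in counts and were not tested.

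Notch3 tag 2, with 25.0% of the gene's counts, spans a splice junction between positions 32122856 and 32124293 of chromosome 17 (GRCm38, minus strand). It had 55 and 84 counts in hindlimb and 73 and 23 in forelimb.

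Among pathway genes outside the naming rule, Hes7, a gene of the somite clock, had 1 and 0 counts in hindlimb and 11 and 4 in forelimb, and Hes5, a Notch target of neural precursors, had 1 and 0 counts in hindlimb and 11 and 1 in forelimb. Hes7 was not called (edgeR adjusted p = 0.0943) and Hes5 was not tested; both were singled out after their values were seen. Neuron and Schwann cell markers, 5 in all, summed to 59.9 and 46.4 CPM in hindlimb and 82.2 and 109 CPM in forelimb, with Stmn2 called higher in forelimb (-1.57, or -0.68 and not called with the offset), and their part in these counts was not tested. Hdac1, a co-repressor used by every cell, is listed at 0 in all 4 libraries. This means only that tags assigned to the gene had no counts. Whether its RNA was read through tags assigned elsewhere or to no gene was not tested. The 5 cartilage markers summed to 2860 and 3970 CPM in hindlimb and 2180 and 1900 CPM in forelimb. The largest part of each sum was Col2a1, called higher in hindlimb (1864 and 3293 CPM, against 1098 and 777 CPM in forelimb), while Matn1 was called higher in forelimb (137 and 120 CPM in hindlimb, against 251 and 365 CPM in forelimb), and neither was called with the tag-sequence offset, at 0.26 and -0.17.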
